A study of Mus musculus with 4 samples.

Results

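The miR-379 to miR-410 cluster is a run of miRNA genes in the imprinted Dlk1-Dio3 region of mouse chromosome 12. Its members were taken as a chosen list of 40 mature miRNAs of the run, with the miR-376 family left out. The deposited table also names 22 of 27 other miRNAs listed for the interval, such as miR-543-5p, which are not members. All 40 members were present among the 1029 miRNA names of the table. They come from 26 hairpins on the plus strand of chromosome 12, from 109709060 to 109743795 (GRCm38), a stretch of 34.7 kb. In the GENCODE mouse annotation, 15 hairpins, from Mir379 to Mir539, lie in no gene of that strand and 11, from Mir382 to Mir410, lie in the long non-coding RNA Mirg: 4 in exons, 4 in introns and 3 across an exon edge. The RNAs were pulled down with the Ago proteins (Ago-RP-Seq) from cortex and hippocampus combined of male C57BL/6J mice, with 2 replicate libraries at 2 months (young) and 2 at 18 months (old). The labels name no treatment or transgene, and age is the only difference they give. The values are reads scaled to a common library total (CPM) of each small RNA bound to the RNA-induced silencing complex (RISC).

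The members of the cluster are made from the maternal allele only, as part of a long non-coding transcript from which the Drosha and Dicer enzymes cut the hairpins. Each hairpin can give 2 mature miRNAs, 1 from its 5p arm and 1 from its 3p arm, and an Ago protein keeps the strand it was loaded with. In neurons the cluster is known to be transcribed with activity, and members such as miR-134, which acts on dendritic spines through Limk1, and miR-485, which acts on the synaptic vesicle protein SV2A, are known from work on synapses. An miRNA finds its targets by the seed near its 5′ end. The study scores the 6mer at positions 2 to 7 by its 6mer seed viability, the viability of 3 mouse cell lines after transfection of a short duplex with that seed, in percent of the control, so that a low value marks a toxic seed.

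The mature sequences of the members on which the results turn are given below from RefSeq (GRCm38.p6), with the seed at bases 2 to 8 in capitals. The first 5 are the most abundant members that the reference table holds, and miR-300-3p and miR-381-3p also differ at only 3 of 22 bases (A4G, G21U and U22C, with the base of miR-381-3p first and positions counted from the 5′ end).
miR-369-3p: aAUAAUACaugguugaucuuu
miR-410-3p: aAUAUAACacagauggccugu
miR-300-3p: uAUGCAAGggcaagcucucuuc
miR-411-5p: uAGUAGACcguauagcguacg
miR-381-3p: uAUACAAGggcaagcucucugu
The next 4 are both arms of Mir379 and the 5p arm of Mir299a, hairpins whose arm levels are compared below, and the 3p arm of Mir411, which shares its seed AUGUAAC with miR-379-3p and differs from it at 2 of 22 bases (U10C and U22C, with the base of miR-379-3p first).
miR-379-5p: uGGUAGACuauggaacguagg
miR-379-3p: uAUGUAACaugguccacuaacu
miR-299a-5p: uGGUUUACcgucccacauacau
miR-411-3p: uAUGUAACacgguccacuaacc
Among the 37 members with a RefSeq sequence, no others shared bases 2 to 8 with each other. The most abundant read of miR-539-3p, which has no such sequence, carried the 6mer seed AUACAA of miR-381-3p. A seed was shared with an miRNA outside the cluster by 6 members, among them miR-410-3p with miR-344d-3p and miR-344e-3p, and miR-329-3p with miR-362-3p. RefSeq sequences matched 37 of the 40 members, and miR-487b-3p, miR-485-5p and miR-539-3p are given by name only.

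The 4 libraries held from 9067007 to 11388999 reads, so that 3 reads amounted to 0.263 to 0.331 CPM. The brain miRNAs miR-124-3p, miR-128-3p and 6 others fixed as neuron markers were present in every library, with a summed 265723 to 268355 CPM in the young mice and 232405 to 265283 CPM in the old mice. The old mice were thus lower without overlap, though the nearest values of the ages lay close together. The summed level of 8 markers of epithelium and olfactory bulb (the miR-200 family and miR-182, miR-183 and miR-96) was 33240 to 56594 CPM in the young mice and 70427 to 75060 CPM in the old mice, so these did not overlap. Both arms of endothelial miR-126a summed to 11472 to 12243 CPM in the young mice and 5422 to 8990 CPM in the old mice, also without overlap. The arms differed in this. The 3p arm gave 9242.5 and 8854 CPM in the young mice and 2557 and 6489 CPM in the old mice. The 5p arm overlapped, with 3000 and 2618 CPM in the young mice and 2865 and 2501 CPM in the old mice. The part of these cell types in the results below was not tested. Fewer cells of a type and less of an miRNA per cell cannot be told apart in these tissue lysates.

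The cluster held 3.34% and 3.81% of all reads in the young mice and 2.65% and 2.68% in the old mice. Of its members, 11 had a mean of 1000 CPM or more, 18 lay between 100 and 1000 CPM, 7 between 10 and 100 CPM and 4 (miR-494-3p, miR-667-5p, miR-539-3p and miR-541-3p) under 10 CPM. The 10 most abundant members held 68.3% of the cluster's CPM. The most abundant was mmu-miR-369-3p, with 5148 and 5907 CPM in the young mice and 5684 and 4936 CPM in the old mice, or 17.4% of the cluster. It was followed by mmu-miR-487b-3p, with 3831 and 4022 CPM in the young mice and 1919 and 1777 CPM in the old mice. Next was mmu-miR-410-3p, with 2844 and 3552 CPM in the young mice and 2658 and 2436 CPM in the old mice. The libraries of the 2 ages overlapped for the first of these and lay apart for the other two.

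Of the next members, mmu-miR-300-3p gave 1909 and 2824 CPM in the young mice and 1558 and 2357 CPM in the old mice. The 5p arm of Mir411 gave 1816 and 2004 CPM in the young mice and 1294 and 1210 CPM in the old mice. Values of miR-381-3p were 1402 and 2281 CPM in the young mice and 930 and 1300 CPM in the old mice. The last 2 of these 3 were lower in each old-mouse library than in each young-mouse library, and miR-300-3p overlapped. The member miR-382-5p gave 1648 and 1571 CPM in the young mice and 1367 and 1223 CPM in the old mice. The 3p arm of Mir323 gave 1445 and 1399 CPM in the young mice and 1165 and 1085 CPM in the old mice. Values of miR-495-3p were 1096 and 1800 CPM in the young mice and 759 and 972 CPM in the old mice. The ages lay apart for all 3 of these. The tenth member, miR-154-5p, gave 947 and 1123 CPM in the young mice and 1011 and 1021 CPM in the old mice, with the old-mouse libraries between the young-mouse ones.

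**Figure D1:**
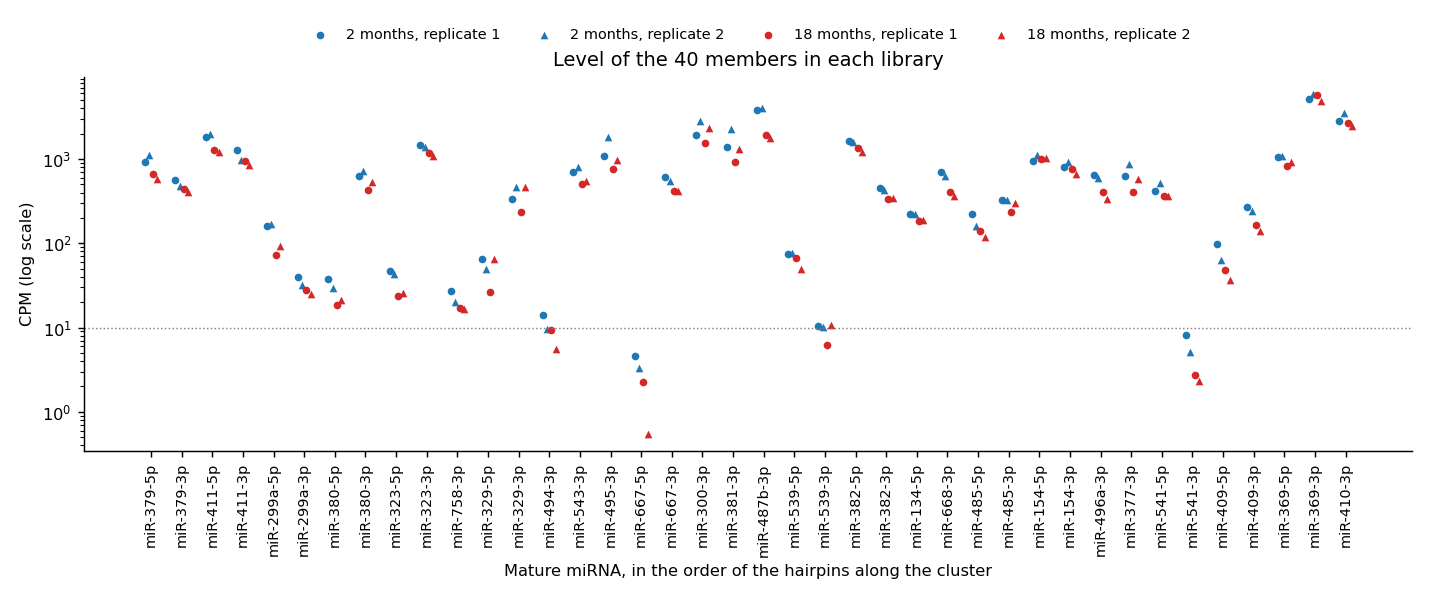
CPM (log axis) of each of the 40 members in the 4 libraries, in the order of the hairpins along the cluster with the 5p arm before the 3p arm, blue for 2 months, red for 18 months, circles for replicate 1 and triangles for replicate 2; the dotted line marks 10 CPM. Levels ran from under 10 CPM for 4 members to over 1000 CPM for 11, and high and low members alternate along the cluster.

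Abundance did not follow the order of the hairpins. Summed over the arms that are members, hairpins ran from 9.69 CPM (Mir494) to 6397 CPM (Mir369). Spearman's rho between the order and the CPM of the 26 hairpins was 0.12, given as a description because the hairpins share their libraries. The upstream 13 hairpins held 39.5% of the cluster's CPM. The last 3 hairpins (Mir409, Mir369 and Mir410), which lie within 0.637 kb, held 30.6%.

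The first question the design puts to the cluster is whether its share of the RISC differs between young and old brains. Summed over all members, the cluster gave 33445 and 38059 CPM in the young mice and 26535 and 26780 CPM in the old mice. Both old-mouse libraries lay below both young-mouse libraries, and the means were 35752 ± 3263 and 26657 ± 173 CPM (SD, n = 2 each), a ratio of 0.746. Across 2 libraries against 2, the exact permutation test (two-sided) gave p = 0.333, the smallest p this design allows. CPM is a share, and the miRNAs as a whole also shifted on this scale: the median log2 change of the 456 miRNAs with a mean of at least 10 CPM was -0.22. With the values divided by median-of-ratios size factors, which set the median of all miRNAs to -0.01, the cluster stood at 30632 and 35874 in the young mice and 29080 and 28304 in the old mice, still without overlap, with a ratio of 0.863 and p = 0.333 (exact permutation test).

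Of the 40 members, 34 had both old-mouse libraries below both young-mouse libraries on the CPM scale and none had both above. All 36 members tested had a log2 change below 0, beside 68.4% of all 456 miRNAs tested, and 31 lay below in this way, beside 41.4% of all, and after the rescaling 17 of 36 did, beside 19.3%, while 1 lay above. In the fit across all miRNAs (limma with a trend on log2(CPM + 1), which understates the change of low miRNAs), 11 of 36 members fell at an unadjusted p under 0.05, or 30.6%, beside 12.1% of all miRNAs called lower. No member rose. The median log2 change of the members was -0.45, beside -0.22 for all miRNAs, and 34 of the 36 lay below the median of all. After the rescaling, 6 of 36 members were called lower, beside 5.48% of all miRNAs, and the median was -0.24 beside -0.01. The quasi-likelihood test of edgeR, run on the read counts behind the CPM, called 4 members lower, beside 5.04% of all miRNAs. With 18 months replicate 2 left out, 5 members were called lower, or 13.9%, beside 10.3% of all miRNAs, so that little of the excess was left. No member passed a Benjamini-Hochberg adjusted p under 0.05 in limma, where 0.219% of all miRNAs (1 of 456) did; edgeR gave 0 members of 0 miRNAs and DESeq2 gave 1 member of 19 miRNAs.

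That 1 member was miR-487b-3p, which had the largest fall of the cluster. From 3831 and 4022 CPM in the young mice it fell to 1919 and 1777 CPM in the old mice, a log2 change of -1.09 ± 0.20 (SE) with an adjusted p of 0.0968 in limma, and -0.87 with an adjusted p of 0.0201 in DESeq2. Over the alternatives its adjusted p ran from 0.0201 to 0.348. Next came mmu-miR-299a-5p, which fell from 162 and 169 CPM to 72.3 and 92.6 CPM, by 1.01 on the log2 scale. These 2 were the only members whose unadjusted p stayed under 0.05 in each of the fits run that tested them, with the highest p at 0.0146 for miR-487b-3p and 0.0211 for miR-299a-5p.

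The other 9 calls lost their unadjusted p under at least 1 alternative. The 3p arm of Mir668 gave 704 and 634 CPM in the young mice and 410 and 361 CPM in the old mice. For miR-496a-3p the levels were 644 and 587 CPM, then 401 and 339 CPM. The pair from Mir409 fell together, miR-409-3p from 266 and 240 CPM to 164 and 140 CPM and its less abundant partner miR-409-5p from 97.2 and 63.9 CPM to 48.0 and 36.3 CPM. In each of these 4 members every old-mouse library lay below every young-mouse library. Among low members, miR-323-5p fell from 46.4 and 43.4 CPM to 23.7 and 26 CPM. Its neighbour miR-380-5p fell from 37.7 and 29.2 CPM to 18.7 and 21.4 CPM. Of the more abundant members, mmu-miR-379-5p fell from 909 and 1107 CPM to 661 and 581 CPM, miR-411-5p from the levels above by 0.61 on the log2 scale, and miR-543-3p from 696 and 796 CPM to 507 and 546 CPM. The log2 changes of these 9 lay between -0.90 (miR-409-5p) and -0.50 (miR-543-3p). The ages did not overlap for any of them.

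**Figure D2:**
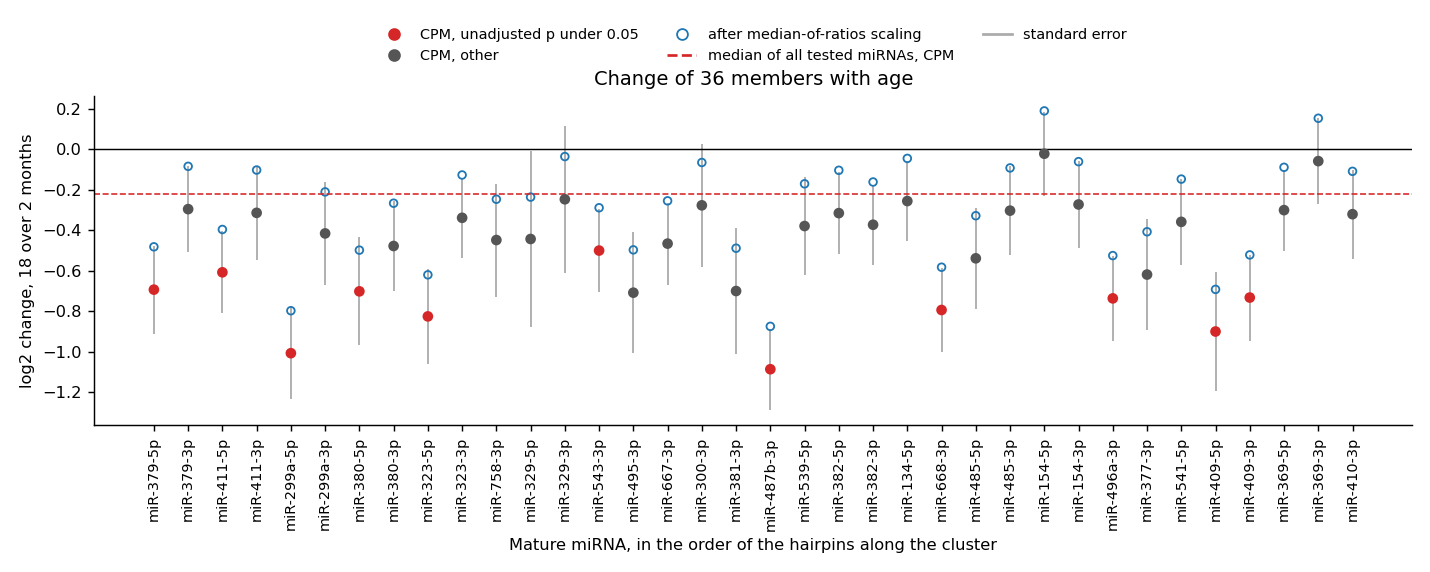
Log2 change from 2 to 18 months of the 36 members with a mean of at least 10 CPM, in cluster order, on the log2(CPM + 1) scale with its standard error (filled points, red where the unadjusted limma p was under 0.05) and after rescaling by the median of ratios (open points); the dashed line is the median of all 456 miRNAs on the CPM scale. All 36 filled points lie below 0, and miR-154-5p and miR-369-3p are the members whose open points lie above it.

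The abundant members miR-369-3p and miR-154-5p had log2 changes of -0.06 ± 0.21 and -0.02 ± 0.21 (SE, with limma adjusted p = 0.914 and adjusted p = 0.959), and after the rescaling these stood at 0.15 and 0.19. The ratio of miR-369-3p to miR-487b-3p, which does not depend on the scaling of a library, was 1.34 and 1.47 in the young mice and 2.96 and 2.78 in the old mice. That of miR-410-3p to miR-487b-3p was 0.742 and 0.883 in the young mice and 1.39 and 1.37 in the old mice. Both ratios were higher in each old-mouse library than in each young-mouse library, with p = 0.333 (exact permutation test), and the pairs were chosen after their levels were seen. Hairpin totals over the member arms were lower without overlap in 22 of 26 hairpins, beside 45.1% of all 319 hairpins of at least 10 CPM. After the rescaling they were so in 15, beside 22.9%. The 26 include Mir494, at 9.69 CPM. Spearman's rho between order and log2 change was 0.19, as a description. Of the tested members, 11 were higher and 11 lower in replicate 2 than in replicate 1 at both ages. Of the 11 higher, 4 (miR-300-3p, miR-381-3p, miR-377-3p and miR-329-3p) were at least 1.3 times higher at both ages. In the other direction, miR-409-5p stood at 0.658 times replicate 1 in the young mice and 0.755 times in the old mice. The same was not counted over all miRNAs, and the labels give no batch with which to compare it.

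The other miRNAs of the Dlk1-Dio3 region were set beside the members. Of 15 tested miRNAs from hairpins antisense to Rtl1, led by miR-127-3p and miR-136-5p, 1 (miR-337-5p) was called lower and none higher, with a median log2 change of -0.34 on the CPM scale. After the rescaling none was called lower and miR-136-3p was called higher, with a median of -0.13. All 18 of them in the table summed to 27481 and 39365 CPM in the young mice and 23837 and 24705 CPM in the old mice. This sum, like that of the members, was lower in the old mice without overlap. Within it, miR-136-5p alone gave 4058 and 16695 CPM in the young mice and 3129 and 4984 CPM in the old mice. Of 4 tested miRNAs nearer to Meg3, led by miR-770-5p and miR-770-3p, 2 were called lower (miR-673-3p and miR-770-3p), and after the rescaling none was. Of 5 tested miRNAs of the miR-376 family, led by miR-376a-3p and miR-376b-3p, none was called in limma, while edgeR called miR-376a-3p higher, and the sum was 4117 and 4432 CPM in the young mice and 3814 and 7530 CPM in the old mice, so that the ages overlapped. The 9 other tested miRNAs of the miR-379 to miR-410 interval, led by miR-543-5p and miR-412-5p, gave 2 called lower and 1 called higher.

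In 11 hairpins both arms were members and reached 10 CPM on average. Mir543, Mir300, Mir381 and Mir134 were left out, as their other arm reached 10 CPM but is not a member. The 3p arm was the more abundant in 6 of the 11 and the 5p arm in 5. Among these 11, balance was most uneven in Mir323. The log2 of 5p over 3p there was -4.96 and -5.01 in the young mice and -5.62 and -5.38 in the old mice. This was a 37.9-fold excess of miR-323-3p over all libraries. Outside the 11, Mir300 and Mir381 were more uneven. Their means over the libraries were 40.2 CPM of miR-300-5p beside 2162 CPM of miR-300-3p, and 23.0 CPM of miR-381-5p beside 1478 CPM of miR-381-3p. Of the 11, Mir154 was the most even, with 0.24 and 0.29 in the young mice and 0.40 and 0.64 in the old mice. This was a 1.31-fold excess of miR-154-5p. In Mir323 and Mir154 the ages lay apart, toward 3p in Mir323 and toward 5p in Mir154. In Mir299a, where miR-299a-5p was 3.79 times the level of miR-299a-3p, the balance was 2.03 and 2.40 in the young mice and 1.37 and 1.89 in the old mice. That of Mir379 was 0.68 and 1.23 in the young mice and 0.60 and 0.51 in the old mice. In these 2 hairpins the balance was lower in both old-mouse libraries, so the 5p arm made up less of the pair.

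Ages did not overlap in 4 of the 11 hairpins, beside 36.6% of all 142 hairpins with both arms in the table. The arms of the cluster were thus set apart by age about as often as those of hairpins elsewhere. Each of the 4 had p = 0.333 (exact permutation test, adjusted p = 0.815 over the 11 hairpins), the smallest this design allows. With 1 library left out, between 6 and 9 of the 11 did not overlap, since 1 library against 2 separates more easily; of the 6 with both arms at 100 CPM or more, 2 did not, beside 43.1% of all 51 such hairpins.

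**Figure D3:**
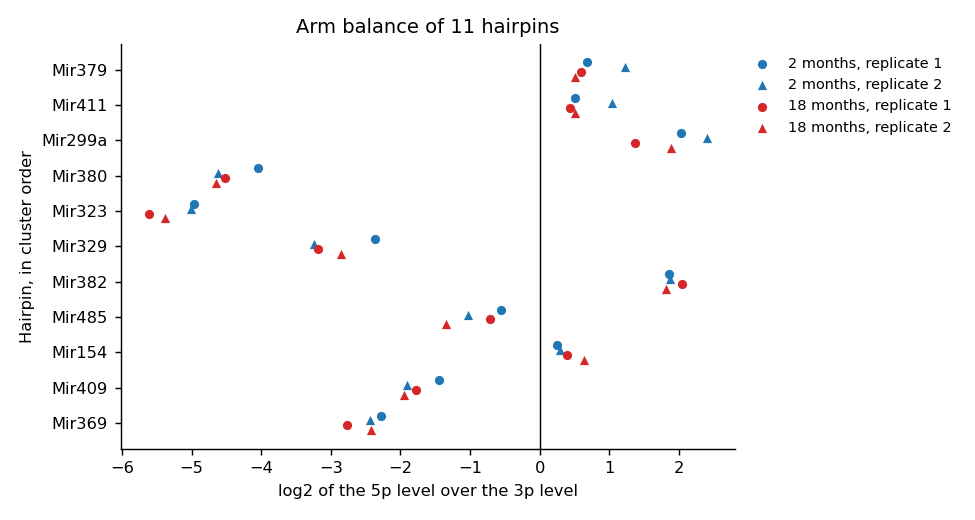
Log2 of the 5p over the 3p level (CPM) of the 11 hairpins whose 5p and 3p arms are both members at 10 CPM or more on average. Hairpins are in cluster order from the top, with 1 point per library, blue for 2 months and red for 18 months. Mir323 lies farthest to the left, near -5, and Mir154 nearest to 0 on the right.

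Where a read starts sets its seed, and for several members most reads in the RISC did not have the 5′ end that RefSeq gives. Among the 37 members with a reference sequence, 6 had most of their reads (over 50%) with another 6mer seed, 4 lay between 20% and 50%, 2 between 10% and 20% and 25 under 10%. In each of the 12 members at 10% or more, another 5′ start accounted for at least 96.3% of these reads. The most abundant reads of 5 members are given below as deposited, with U for T and bases 2 to 8 in capitals, beside the RefSeq form of 2 of them.
miR-382-3p, RefSeq: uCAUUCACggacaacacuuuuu
miR-382-3p, read, start -2: aAUCAUUCacggacaacacuuu
miR-496a-3p, RefSeq: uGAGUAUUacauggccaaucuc
miR-496a-3p, read, start +2: aGUAUUACauggccaaucucc
miR-485-3p, read, start +3: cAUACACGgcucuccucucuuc
miR-411-5p, read, start -1: aUAGUAGAccguauagcguacg
miR-323-3p, read, start -1: gCACAUUAcacggucgaccucu

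In miR-382-3p, the share of reads with another seed was 99.9% in both young-mouse libraries and 99.7% and 99.8% in the old mice, and 96.8% of the placed reads began 2 bases upstream. This replaced the seed CAUUCA, of 61.8% viability, with AUCAUU, of 87.6%. In miR-485-3p the share was 94.3% in both young-mouse libraries and 92.5% and 94.4% in the old mice, divided between a start at +3 (seed AUACAC) and a start at +1 (seed UCAUAC). The low member miR-541-3p had shares of 95.3%, 88.1%, 96.5% and 95.3% at a mean of 4.59 CPM. In miR-496a-3p the share was 90.5% and 89.8% in the young mice and 93.3% in both old-mouse libraries, higher in the old mice without overlap, and its main seed GUAUUA had a viability of 82.7% against 48.4% for GAGUAU.

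Of the abundant members, miR-411-5p and miR-323-3p were each read from 2 neighbouring starts in near-even parts. Reads of miR-411-5p began 1 base upstream in 57.5% and 59.8% in the young mice and 60.3% and 60.0% in the old mice. Reads of miR-323-3p did so in 54.6% and 58.4% in the young mice and 56.3% and 55.8% in the old mice. The split of miR-411-5p was slightly higher in both old-mouse libraries and that of miR-323-3p overlapped. For miR-409-3p, miR-299a-3p, miR-495-3p and miR-377-3p the reference start was the main one, with 54.3% to 77.4% of placed reads.

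Over the whole cluster, reads with another seed made up 17.3% and 15.6% in the young mice and 15.5% and 14.8% in the old mice. The means were 16.4% ± 1.22 and 15.1% ± 0.52 (SD, n = 2 each), with p = 0.333 (exact permutation test). The difference of -1.26 percentage points shrank to -0.40 without 2 months replicate 1 and turned to 0.087 as a mean over the members' own shares. Over the other miRNAs of the RefSeq table the share lay between 6.78% and 7.35%. By member the gap was smaller, as 9 of its 34 members of at least 10 CPM were at 20% or more, or 26.5%, beside 20.3% of 355 other miRNAs, and the medians were 4.48% and 3.40%. The share did not overlap between the ages in 9 of the 34 members, 4 higher and 5 lower, beside 32.6% of all miRNAs.

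**Figure D4:**
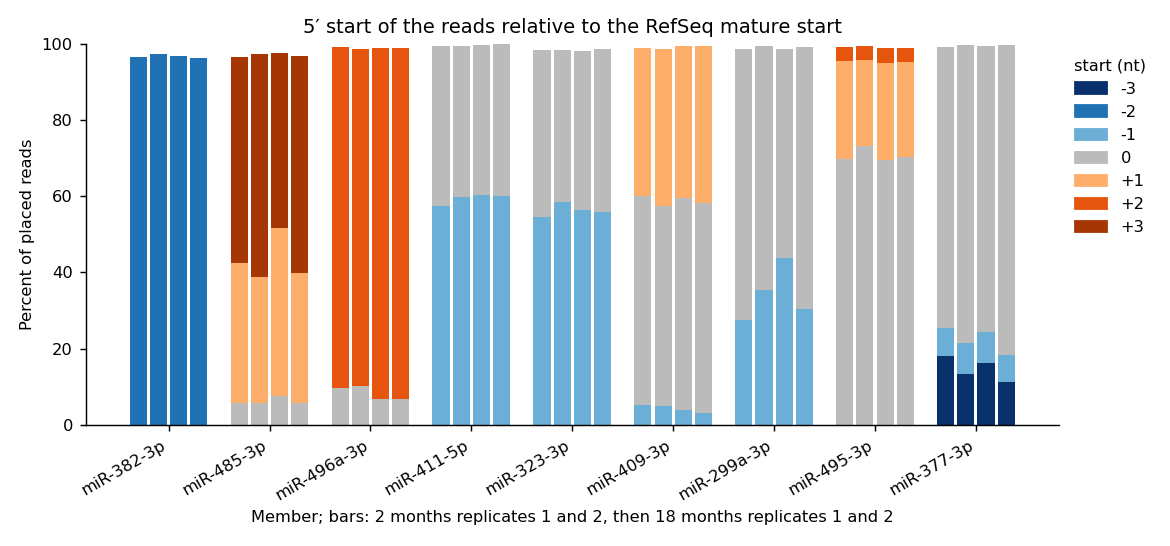
Percent of the placed reads of 9 members (those of at least 10 CPM with 20% or more of reads with another seed) by 5′ start, counted in bases from the RefSeq mature start; the 4 bars of a member are the young-mouse replicates 1 and 2 and the old-mouse replicates 1 and 2, and starts under 3% on average are left out. In miR-382-3p, miR-485-3p and miR-496a-3p nearly all reads start elsewhere, while miR-411-5p and miR-323-3p divide between -1 and 0.

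Some members carried a G where the genome has an A. Adenosine deaminases (ADAR enzymes) turn A into inosine, which is read as G, and primary transcripts of this region are known substrates in brain; whether the mismatches here arose in that way was not tested. Reads were placed on the members by their first 18 bases with at most 1 mismatch, whatever name the deposited table gave them. Of 138 A positions with at least 1000 reads, 7 positions in 6 members had G in 1% or more of the reads. Of the 1336 mismatches of the other 11 kinds, 1 reached 1% (G2A of miR-496a-3p, at 1.97%), and their median was 0%. Among other miRNAs of the RefSeq table, 23 of 1041 A positions reached 1% (2.21%, beside 5.07% in the members). These shares were not counted alike. For other miRNAs only starts within 1 base were used, and no position was recovered by the 3′ end, as A4G of miR-381-3p was. The members' count also holds A7G of miR-300-3p, which was 0.985% once reads of miR-381-3p were told apart. The highest of the others with a name from this region was A6G of miR-376b-3p, with 75.6% and 76.0% in the young mice and 76.8% and 79.5% in the old mice. The most abundant reads with a G at 5 of the positions are given below as deposited, with U for T and the G in capitals.
miR-411-5p, A5G: uaguGgaccguauagcguacg
miR-379-5p, A5G: ugguGgacuauggaacguagg
miR-381-3p, A4G: uauGcaagggcaagcucucugu
miR-377-3p, A10G: aucacacaaGggcaacuuuugu
miR-381-3p, A7G: uauacaGgggcaagcucucugu

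In miR-411-5p, G stood at position 5 in 36.7% (95% Wilson interval 36.1% to 37.2%) and 35.7% of reads in the young mice and in 38.2% and 36.8% in the old mice. These intervals cover counting error only. None of these reads has an miRNA name in the deposited table. They summed to 1064 and 1125 CPM in the young mice and 812 and 711 CPM in the old mice. With all placed reads counted, miR-411-5p stood at 2901 and 3153 CPM in the young mice and 2125 and 1934 CPM in the old mice, 1.60 times its named level. The G was found from both starts, in 37.4% of reads beginning at -1, where the ages overlapped, and 35.4% of those beginning at 0, where the old mice were higher. It changes the seed AGUAGA (viability 87.2%) to AGUGGA (64.3%), and the upstream seed UAGUAG (84.3%) to UAGUGG (47.3%).

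In miR-379-5p, whose hairpin is the neighbour of Mir411, G stood at position 5 in 15.2% and 16.2% of reads in the young mice and 17.6% and 18.5% in the old mice. The seed GGUAGA (viability 34.4%) becomes GGUGGA (15.7%). With the reads added that have no name, the log2 of 5p over 3p rose to 1.02 from 0.75 in Mir379 and to 1.29 from 0.62 in Mir411, on average over the libraries. In miR-377-3p, G stood at position 10, outside the seed, in 5.05% and 5.03% of reads in the young mice and 6.10% and 5.81% in the old mice. In miR-154-5p it stood at position 2 in 0.801% and 1% in the young mice and 1.19% and 1.12% in the old mice, in reads that keep the name. The values in the old mice were the higher in all 3.

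The seed of miR-381-3p with G at position 4 is AUGCAA, the seed of miR-300-3p, and the deposited table gives such reads the name miR-300-3p. Bases 21 and 22 tell the hairpins apart, being GU in miR-381-3p and UC in miR-300-3p. Of the reads with the miR-381-3p end, G stood at position 4 in 11.5% and 14.5% in the young mice and in 21.3% and 19.7% in the old mice. In the reverse check, A stood at position 4 in 0.0465% of the reads with the miR-300-3p end (20 reads). By this end, at least 11.6% of the reads named miR-300-3p belong to the hairpin of miR-381-3p. Reads too short to show both bases could not be assigned, and they stay in the total and under the name miR-300-3p. Moving them, and adding the reads with no name, set miR-381-3p at 1625 and 2740 CPM in the young mice and 1178 and 1637 CPM in the old mice and miR-300-3p at 1804 and 2557 CPM in the young mice and 1391 and 2165 CPM in the old mice.

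G at position 7 was found in the same pair. It stood in 2.67% and 2.94% of miR-381-3p reads in the young mice and 2.11% and 3.05% in the old mice, with the ages overlapping. Reads placed on miR-300-3p had it in 2.07% and 2.09% in the young mice and 2.21% and 2.41% in the old mice, but part of these are reads of miR-381-3p with G at both positions. With the hairpins told apart by the 3′ end, the share in miR-300-3p over all libraries was 0.985% and the ages overlapped. In miR-381-3p it was 3.29% of reads with A at position 4 and 5.84% of reads with G there.

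The share of G was higher in both old-mouse libraries than in both young-mouse libraries at 6 of the 7 positions as placed, beside 60% of the 30 positions of 1% or more over all miRNAs. Position 7 of miR-300-3p, where the ages overlap once the hairpins are told apart, is among the 6, and without it the count was 5 of 6. Of the 23 positions in other miRNAs, 12 were higher and 1 lower in this way. The difference between the members and other miRNAs was not tested. Each of the 6 had p = 0.333 (exact permutation test, adjusted p = 0.389 over the 7 positions), the smallest the design allows. The widest was that of position 4 of miR-381-3p, from 13% ± 2.12 to 20.5% ± 1.15 (SD, n = 2 each). Counting the placed reads in place of the named ones left 11 of 36 members called lower with age.

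**Figure D5:**
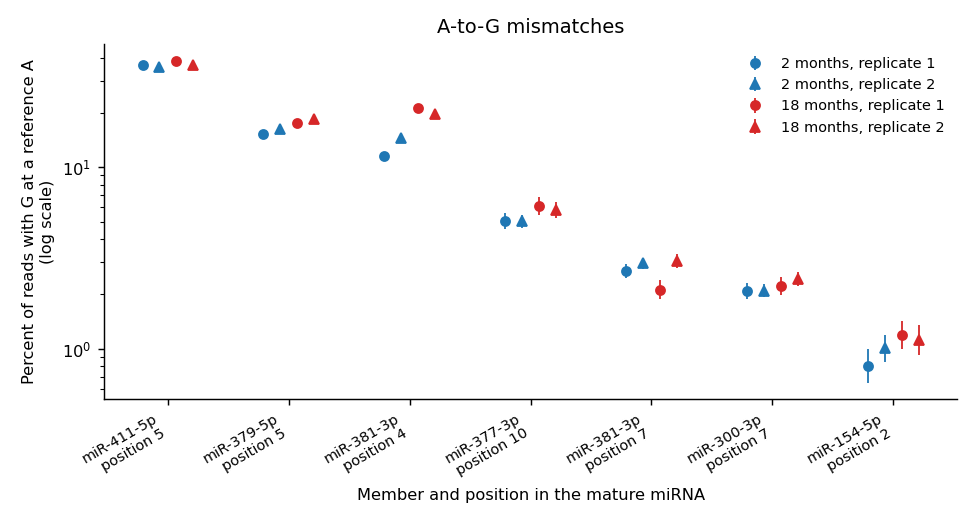
Percent of reads (log axis) with G at a reference A for the 7 positions of 1% or more, in each library with its 95% Wilson interval, blue for 2 months and red for 18 months; position 4 of miR-381-3p is counted among reads with its own 3′ end. As placed, the red points lie above the blue at every position but position 7 of miR-381-3p; for position 7 of miR-300-3p this ends when the hairpins are told apart by the 3′ end.

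The members carried mostly seeds of high viability. The main seeds of 22 of the 40 had a viability of 70% or more and those of 9 were under 50%. They ran from 5.8% (miR-485-5p) to 94.3% (miR-381-3p, miR-410-3p and the low member miR-539-3p). Weighted by CPM, the mean 6mer seed viability of the cluster was 74.5% and 75.4% in the young mice and 74.9% in both old-mouse libraries. The ages overlapped (p = 1, exact permutation test). For all other miRNAs it was 57.2% and 57.3% in the young mice and 57.6% and 58.0% in the old mice. Reads with seeds of 70% or more made up 77.3% and 78.4% of the cluster in the young mice and 78.6% and 77.5% in the old mice, beside 23.0% to 24.1% of the reads of other miRNAs. Without 2 months replicate 2, the change of the cluster's mean turned from -0.05 to 0.43 percentage points. Reads with seeds under 50% made up 10.04% and 9.34% of the cluster in the young mice and 8.52% and 8.86% in the old mice, lower without overlap, with p = 0.333 (exact permutation test). All these values count only reads with an miRNA name. With the placed reads that have no name added, the mean viability was 73.6% and 74.5% in the young mice and 74.0% and 74.1% in the old mice. The share of seeds under 50% was not recounted with them.

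The 3′ ends of the members were looked at after the data were seen. Reads that departed from the hairpin only by 1 or more added A at the 3′ end made up 5.22% and 4.64% of the members' placed reads in the young mice and 6.84% and 6.11% in the old mice, p = 0.333 (exact permutation test), the smallest this design allows. Over the other miRNAs of the RefSeq table they made up 4.98% and 4.59% in the young mice and 5.72% and 5.09% in the old mice. By member, the share was higher in both old-mouse libraries in 14 of 34 members and lower in 4, beside 27.1% higher over all 362 miRNAs. It was highest in miR-323-3p, with 20.9% and 17.6% in the young mice and 30.8% and 28.1% in the old mice. In its partner miR-323-5p it was 3.74% and 2.43% in the young mice and 9.16% and 7.62% in the old mice, and in miR-369-3p it was 6.16% and 5.79%, then 9.18% and 8.58%. Reads ending in added U overlapped between the ages, with 2.53% and 2.20% of the members' reads in the young mice and 2.22% and 2.36% in the old mice. The difference between the members and other miRNAs was not tested.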

How the data were processed

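Small RNAs bound to the Ago proteins were sequenced from cortex and hippocampus of mice of 2 months (2 libraries) and 18 months (2 libraries). The authors trimmed the reads, removed rare ones, named the others by BLAST searches against mouse small RNA sets and deposited CPM for each of 85704 sequences and library, with the viability score of its 6mer seed. Trim Galore is named in the submitters' processing notes. All nonzero CPM values were whole multiples of 1 read, so the deposited table gave back the read counts, of 9067007 to 11388999 per library (whole reads recovered in 100% of values, within 0.1 of a read). The smallest sum of a sequence over the libraries was 4 reads, so rare variants are missing and low shares are understated. No per-sample column was left unassigned (0).

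CPM was summed by the deposited miRNA name. limma 3.58.1 (with trend, two-sided, age as covariate) was fitted to log2(CPM + 1) of the 456 miRNAs with a mean of at least 10 CPM. edgeR 4.0.16, DESeq2 1.42.0, rescaling, other filters and pseudocounts, a replicate block and leaving out each library were alternatives. Exact permutation tests compared the library values. Reads were placed on RefSeq hairpins by their first 18 bases, with a start within 3 bases of the mature start for mismatches. Shares carry 95% Wilson intervals. The fits were tested on simulated data. R 4.3.3 and Python 3.11.15 were used.

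The members, lists and tests were chosen with earlier results of these data known. Named are the 10 most abundant members and each with an unadjusted p under 0.05. Also named are the 3 members with the highest share of shifted seeds, and each member with G at an A in 1% or more of reads. Of hairpins with both arms as members, those with the most and least even arms or with ages apart are named. The comparisons with other miRNAs, the ratios and the 3′ tails were added after the data were seen. Nothing says whether replicate libraries came from separate mice, so p-values measure the spread between these libraries, which may be technical.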

Additional observations from a re-analysis of the deposited data

Results flagged for a closer look

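Reads that have no miRNA name in the deposited table, but whose wider annotation names the hairpin of a member, lay outside the age comparison of named miRNAs. They summed to 1757 and 2008 CPM in the young mice and 1384 and 1331 CPM in the old mice, a mean of 1620 CPM, far above the 0.331 CPM that 3 reads were worth in the shallowest library. Those of Mir411 made up 964 CPM and those of Mir379 made up 176 CPM, followed by Mir369 with 94.5 CPM. With 2 libraries per age, no test for a sample that stands apart could be made.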

How the results depend on the processing

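The number of members called lower was 11 and stayed between 9 and 16 with other pseudocounts, filters, limma without the trend, only reads with their own seed, and reads placed by alignment; these were 27.3% to 40% of the members tested, beside 9.04% to 12.3% of all miRNAs. It was 4 with edgeR (11.1% beside 5.04%), 5 with DESeq2 (13.9% beside 5.70%), 6 with median-of-ratios scaling (16.7% beside 5.48%, or 7.89% of all with the replicate block), 0 at an adjusted p under 0.05, and 5 to 9 with 1 library left out. The lowest was without 18 months replicate 2 (13.9% beside 10.3%), and the other 3 gave 22.2% to 25% beside 8.99% to 11%. The median log2 change of the members was -0.39 with a pseudocount of 5, -0.37 at 100 CPM or more, -0.23 with edgeR, -0.24 with DESeq2 and with median-of-ratios scaling, and -0.52 to -0.41 with 1 library left out; minus the median of all miRNAs it was -0.18 with the pseudocount of 5, -0.30 without a filter and -0.30 to -0.19 with 1 library left out. Of the 11 calls, 2 were kept in every fit that leaves out 1 library. The change of miR-369-3p turned to 0.17 with edgeR, 0.15 with DESeq2 and with median-of-ratios scaling, and ran from -0.16 to 0.044 with 1 library left out, above 0 without either replicate 2. That of miR-154-5p turned to 0.19 with edgeR and with the rescaling, and 0.18 with DESeq2, and ran from -0.14 to 0.10 with 1 library left out, above 0 without 2 months replicate 2. That of miR-300-3p ran from -0.58 to 0.022, above 0 without 2 months replicate 2 or 18 months replicate 1.

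The log2 change of the cluster's sum kept its direction, from -0.51 to -0.33 with 1 library left out and -0.21 with the rescaling. Hairpins whose ages did not overlap numbered 2 of 6 at 100 CPM or more and 6 to 9 with 1 library left out. The change in reads with a shifted seed was -2.12 to -0.40 percentage points with 1 library left out and 0.087 as the mean of the members' shares. The change in seed viability was 0 as the weighted median and -0.54 to 0.43 with 1 library left out. G at position 7 of miR-381-3p changed by -0.70 to 0.24 percentage points with 1 library left out, and position 7 of miR-300-3p turned to -0.024 with the hairpins told apart by the 3′ end, an alternative chosen after seeing the data. The other 5 positions kept their direction in the settings run. The cause of these shifts was not tested, beyond the scaling itself, which moves all miRNAs together.

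With the replicate number as a block, 14 members were called lower against 11, or 38.9% beside 14.5% of all miRNAs, whose calls rose too, from 55 to 66. Deviations of same-numbered libraries correlated at 0.180 over all tested miRNAs and 0.353 over the members, but mice of different ages share only a number, and 2 pairs do not show a pairing.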

Other observations

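The markers fixed for other cell types gave these summed levels. Oligodendrocyte markers (miR-338 and miR-219a) ran from 8495 to 12228 CPM in the young mice and 6814 to 10535 CPM in the old mice, immune and microglia markers from 3322 to 3790 CPM and 3051 to 3112 CPM, and vascular smooth muscle markers (miR-143 and miR-145a) from 6415 to 6559 CPM and 4915 to 5033 CPM. Choroid plexus markers ran from 2196 to 2703 CPM and 2331 to 2904 CPM, and muscle and liver markers from 162 to 206 CPM and 200 to 240 CPM. Red blood cell markers, summed over 3 of the 4 fixed, ran from 1805 to 3382 CPM and 1703 to 2827 CPM. Left out was miR-486a-5p, which the deposited table names jointly with miR-486b-5p. That joint entry gave 197 and 192 CPM in the young mice and 148 and 134 CPM in the old mice.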
